A study of Mus musculus with 6 samples.

Results

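The 10 genes described here belong to the bone morphogenetic protein (BMP) pathway of the mouse: the ID genes Id1, Id2 and Id3, the ligand genes Bmp2, Bmp4 and Bmp8b, the receptor genes Bmpr1a and Bmpr2, and the inhibitory SMAD genes Smad6 and Smad7. They were chosen by name from 25528 genes in each count table, and all 10 were found and had enough counts to be tested. The samples were 6 libraries of polyadenylated RNA from organoids of the stomach corpus, the acid-secreting body of the stomach, grown in 3D culture. In 3 of them the organoids overexpressed Erbb2, which encodes a relative of the EGF receptor, and in the other 3 they had been transduced with an empty vector. The labels give neither age nor strain, nor the promoter of the construct, the medium, or whether the replicates of a group were cultured separately. The spread that p-values rest on is that between these libraries, and it may be technical.

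BMPs are secreted dimers that bind a complex of type I receptors, such as the product of Bmpr1a, and type II receptors, such as that of Bmpr2. The activated type I receptor phosphorylates SMAD1, SMAD5 and SMAD9, which enter the nucleus with SMAD4 and switch on target genes, among them the ID genes and the inhibitory SMADs that close a negative feedback loop. ID proteins lack a DNA-binding domain and hold basic helix-loop-helix proteins away from DNA. In the stomach BMP signals come in large part from the mesenchyme and act on epithelial differentiation, and media for gastric organoids commonly contain the BMP antagonist noggin.

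Promoter sequences are shown for Id2 and Id3, a pair of related BMP target genes that stood near opposite ends of the range of levels described below, and for the feedback gene Smad6. They are RefSeq sequences of assembly GRCm38.p6, reach from 250 bases before the transcription start to 50 after it, and are written 5′ to 3′ on the gene's strand. Capitals mark exact matches, on either strand, to GGCGCC, the core of a GC-rich BMP response element, to the SMAD-binding letters GTCT (AGAC on the other strand), and to TATAAA.
Id2 (chr12:25096043-25096342, minus strand): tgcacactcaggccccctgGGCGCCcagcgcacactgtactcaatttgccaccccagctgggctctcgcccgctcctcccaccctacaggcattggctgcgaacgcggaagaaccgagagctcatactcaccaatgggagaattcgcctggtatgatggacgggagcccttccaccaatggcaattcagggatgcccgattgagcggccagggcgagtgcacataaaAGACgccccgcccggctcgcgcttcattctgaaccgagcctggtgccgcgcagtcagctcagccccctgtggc
Id3 (chr4:136143572-136143871, plus strand): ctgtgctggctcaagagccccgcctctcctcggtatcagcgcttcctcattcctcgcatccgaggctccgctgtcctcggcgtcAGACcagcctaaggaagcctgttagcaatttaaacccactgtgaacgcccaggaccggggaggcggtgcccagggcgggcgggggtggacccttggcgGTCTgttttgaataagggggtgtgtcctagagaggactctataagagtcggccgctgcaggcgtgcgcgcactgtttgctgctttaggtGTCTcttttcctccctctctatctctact
Smad6 (chr9:64022010-64022309, minus strand): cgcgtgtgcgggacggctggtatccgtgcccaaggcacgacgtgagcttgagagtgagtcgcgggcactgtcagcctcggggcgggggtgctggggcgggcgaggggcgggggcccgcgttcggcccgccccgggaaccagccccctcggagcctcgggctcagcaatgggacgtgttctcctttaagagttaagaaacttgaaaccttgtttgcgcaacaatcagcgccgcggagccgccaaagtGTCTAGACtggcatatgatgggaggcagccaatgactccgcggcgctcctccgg
The table held promoters of 7 of the 10 genes. GGCGCC occurred in 11.9% of all 32851 promoters, and among the 7 it was found once each in Id2, Bmpr1a and Bmpr2. GTCT or AGAC occurred in 88.0% of all promoters, so that its presence in 6 of the 7 sets none of them apart. In Smad6 both forms of it lie side by side as GTCTAGAC, a palindrome that is a known binding sequence of SMAD proteins and that 0.213% of all promoters hold; this longer motif was searched for after the Smad6 sequence had been seen. TATAAA, found in 13.6% of promoters, was in none of the 7. The GC content of these windows ran from 59.3% in Bmpr2 to 79.3% in Bmpr1a, above the median of 52.7% over all promoters. These matches describe the letters of the windows and say nothing of binding in the organoids.

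Total counts lay between 18735853 and 22767455. Erbb2 itself was measured at 125, 164 and 128 CPM (counts per 1000000 scaled counts) in control replicates 1, 2 and 3 and at 342, 349 and 285 CPM in the overexpressing libraries, so the groups did not overlap. With the group as single term of the fit it was higher by a log2 fold change of 1.23 (standard error, SE, 0.15; edgeR adjusted p = 0.640), and with the replicate number as a block by 1.23 (SE 0.09; edgeR adjusted p = 3.47e-05). Libraries with the same number deviated together, with correlations of 0.333, 0.660 and 0.707, against -0.657 to 0.128 for different numbers. Deviations from a mean of 3 libraries sum to 0, so positive values for the same number push those for different numbers down. The contrast between these values is thus in part built in. The block is therefore given beside each result. This pairing rests on the same counts as the tests and is weak for replicate 1. On the first principal component, with 57.8% of the variance, both libraries of replicate 3 stood apart from the other 4. Results are thus also given without that pair. In that fit few libraries remain, and the spread behind its p-values is taken largely from other genes. Over all 12593 genes tested, 0% passed an adjusted p of 0.05 without the block (0 by edgeR, with 419 at an unadjusted p under 0.05, and 34, or 0.270%, by DESeq2), 3.09% passed with it, and 8.71% passed with it when replicate 3 was left out.

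Between Erbb2-overexpressing and control organoids 0 of the 10 genes passed the threshold, without or with the block. Without it the adjusted p was 1.0 for each of the 10 in edgeR, and 0 of the 10 had an unadjusted p under 0.05, against 3.33% of all genes. With the block the adjusted p-values ran from 0.0961 for Bmp8b to 0.970 for Id1, and 1 of the 10, Bmp8b, had an unadjusted p under 0.05, against 16.8% of all genes. DESeq2 called 0 of the 10 in either design, where it called 0.270% of all genes without the block and 3.77% with it. At an unadjusted p under 0.05 it had 0 of the 10 without the block (3.64% of all genes) and 1 with it (12.2%). The groups overlapped for each of the 10 genes, while 8.75% of all genes tested had groups that did not. With the block 7 of the genes lay above 0 and 3 below, with a median log2 fold change of 0.12, beside -0.01 for all genes, of which 6095 lay above 0 and 6498 below. Without replicate 3 that lean turned round, with 3 of the 9 genes then tested above 0, 6 below and a median of -0.03. In that fit 1 of the 9, Bmp2, was called higher (6.15% of all genes). In bulk RNA fewer cells of a type and less RNA per cell cannot be told apart.

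**Figure D1:**
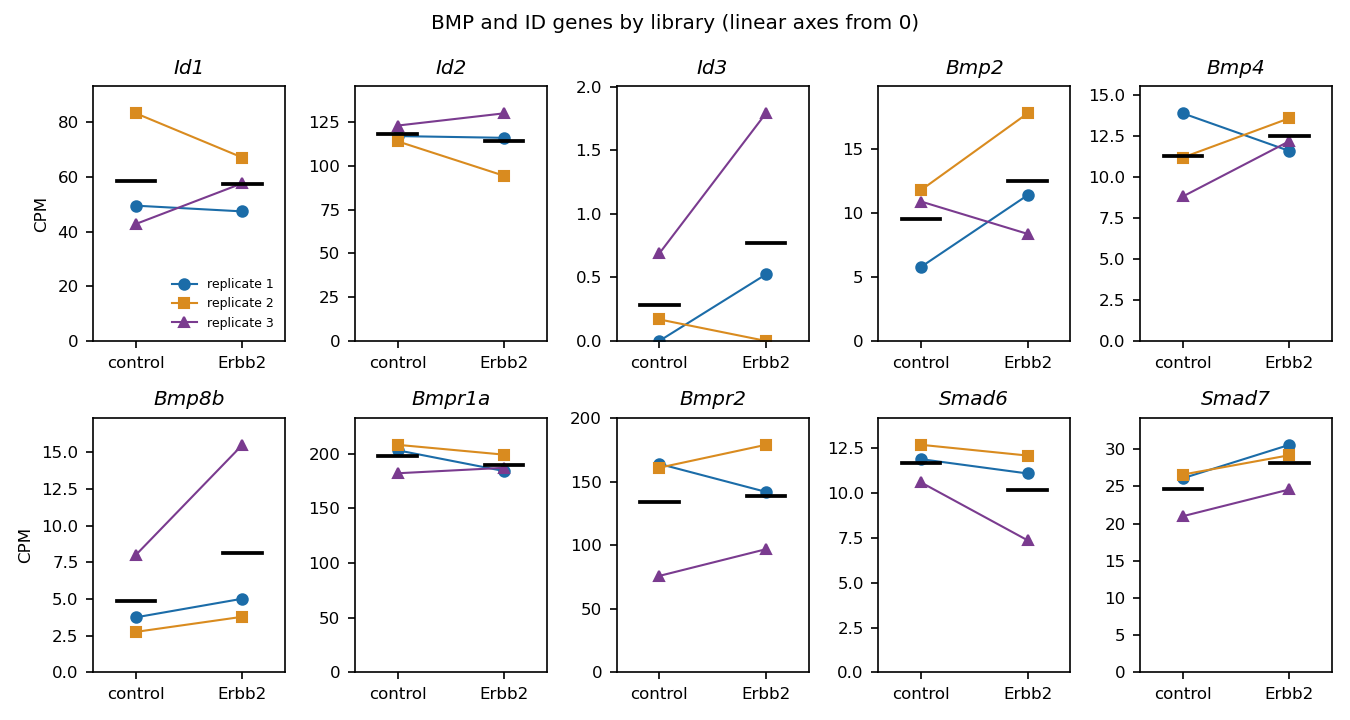
CPM of each gene in each library, on linear axes that start at 0. Symbols joined by a line are the control and the Erbb2-overexpressing library of the same replicate number, and black bars are group means (n = 3); the groups overlap in every panel, and for Bmp8b and Bmpr2 both libraries of replicate 3 stand away from the other 4.

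Levels of different genes were compared per kilobase of exonic sequence, as CPM per kb over the 6 libraries. Id1 and Id2 stood highest, Id1 between 36.9 and 71.8 CPM per kb and Id2 at 47.5 ± 4.89 CPM per kb (SD, n = 6), and their ranges overlapped. Bmpr1a followed at 30.5 ± 1.74 CPM per kb, with a range that met neither that of Id2 above nor that of Bmpr2 below. Bmpr2 had 7.58 ± 2.28, Smad7 5.83 ± 0.749, Bmp4 5.29 ± 0.826, Smad6 3.42 ± 0.595, Bmp2 3.10 ± 1.14 and Bmp8b 1.67 ± 1.23 CPM per kb, and each of these overlapped with its neighbour in the order. Id3 was lowest, at 0.295 ± 0.379 CPM per kb, and its range reached that of Bmp8b. Exonic lengths are those of an annotation of an earlier assembly and count every annotated exon, which lowers the value of genes with long alternative exons, such as Bmpr2 with 17983 exonic bases.

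Of the ID genes, Id1 and Id2 were well expressed and close to equal in both groups. Id1, a direct target of BMP-activated SMADs in many cell types, was at 49.5, 83.3 and 42.8 CPM in control replicates 1, 2 and 3 and at 47.4, 67.1 and 57.7 CPM in the overexpressing libraries. Control replicate 2 was the highest library and control replicate 3 the lowest, so that the overexpressing libraries lay inside the range of the controls. The group means were 58.6 ± 21.7 and 57.4 ± 9.90 CPM (SD, n = 3). With the block the log2 fold change was 0.02, with a 95% interval of -0.27 to 0.30 (edgeR, adjusted p = 0.970). Without replicate 3 it was -0.18 (interval -0.39 to 0.02, adjusted p = 0.314 in edgeR).

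Id2, an ID protein that is also under the control of signals other than BMP, was at 117, 114 and 123 CPM in the controls and at 116, 94.3 and 130 CPM in the overexpressing libraries. The lowest and the highest value both came from overexpressing libraries, replicates 2 and 3. The log2 fold change with the block was -0.06 (interval -0.25 to 0.13, edgeR adjusted p = 0.778), and without replicate 3 it was -0.13 (interval -0.32 to 0.05). Its control libraries were close together, at 118 ± 4.38 CPM, while the overexpressing ones were at 114 ± 17.9 CPM.

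Id3 stood near the limit of detection. The controls held 0, 3 and 16 counts and the overexpressing libraries 12, 0 and 43 counts for replicates 1, 2 and 3. A count of 0 allows up to 3 counts, or 0.139 CPM in control replicate 1 and 0.170 CPM in Erbb2 replicate 2; these limits cover counting error only. The highest level, 1.79 CPM, was in Erbb2 replicate 3, and control replicate 3 was the highest of the controls at 0.688 CPM. The blocked fit gave 1.47 on the log2 scale, in a wide interval of -0.14 to 3.07 (edgeR, adjusted p = 0.347). Without replicate 3 the gene fell under the filter on low counts and was not tested.

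**Figure D2:**
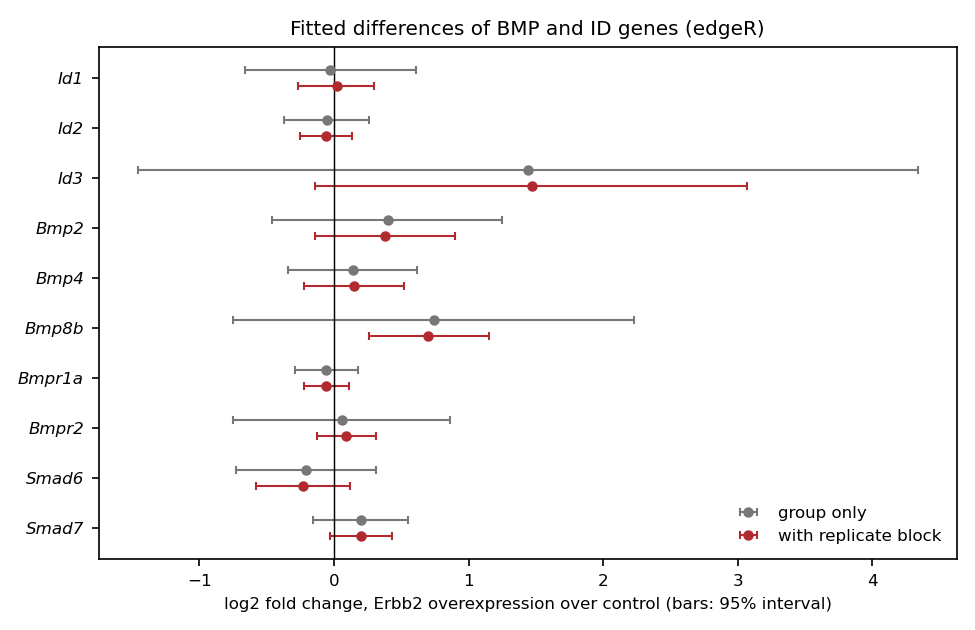
Fitted log2 fold change of each gene, Erbb2 overexpression over control, from edgeR with the group alone (grey) and with the replicate block (red); bars are 95% intervals not adjusted for the number of genes. Intervals of Id1, Id2, Bmpr1a, Bmpr2 and Smad7 with the block are narrow and cover 0. That of Bmp8b, 0.26 to 1.15, does not cover 0, although its adjusted p in edgeR is 0.0961.

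Of the 3 ligand genes, Bmp8b was higher in the overexpressing library of each pair, while the direction for Bmp2 and Bmp4 differed between pairs. Bmp2, a ligand that epithelia as well as mesenchyme make, was at 5.79, 11.8 and 10.9 CPM in control replicates 1, 2 and 3 and at 11.4, 17.8 and 8.37 CPM in the overexpressing ones. It was higher in the overexpressing library in pairs 1 and 2, by log2 ratios of 0.98 and 0.59, and lower in pair 3, by a log2 ratio of -0.38. With all pairs the blocked log2 fold change was 0.38 (interval -0.14 to 0.90, edgeR adjusted p = 0.468). Without replicate 3 it was 0.77 (SE 0.19, interval 0.40 to 1.15, edgeR adjusted p = 0.00196), a 1.71-fold rise over the remaining pairs. The adjusted p was 0.909 without replicate 1 and 0.839 without replicate 2. Whether the difference in pair 3 departs from that in the other pairs was not tested.

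Bmp4, which mesenchymal cells supply in the intact stomach, was at 13.9, 11.2 and 8.82 CPM in the controls and at 11.6, 13.6 and 12.2 CPM in the overexpressing libraries. Its lowest and highest values were both in controls, and the pair log2 ratios were -0.27, 0.28 and 0.47. With the block Bmp4 came to a log2 fold change of 0.15 (interval -0.22 to 0.52, edgeR adjusted p = 0.727). Fibroblast markers were close to absent from these cultures: 5 of 8 (Col1a2, Dcn, Lum, Pdgfrb and Thy1) had 0 counts in each library, and the 8 together came to between 0.695 and 1.42 CPM in controls and between 1.35 and 1.70 CPM in overexpressing organoids. The 6 epithelial markers, Epcam and Cdh1 among them, together came to between 6859 and 8511 CPM over the 6 libraries. Markers of the corpus cell types differed in level and in how they moved. The 4 pit cell markers together came to between 31.5 and 74.5 CPM in controls and between 85.8 and 194 CPM in overexpressing libraries, so their sums did not overlap. Most of each sum was Tff1, at 62.8, 73.9 and 28.6 CPM in controls and at 85.0, 187 and 115 CPM in overexpressing libraries. Tff1 did not pass the threshold without or with the block (edgeR adjusted p = 0.325 with it). Gkn1 and Gkn2 overlapped between groups, and Muc5ac fell under the filter on low counts. Tff2, the trefoil factor gene of neck cells, was at 34.2, 92.5 and 39.2 CPM in controls and at 79.4, 175 and 59.2 CPM in the overexpressing libraries, and it rose with the block (log2 fold change 0.91, SE 0.11, edgeR adjusted p = 0.00166, against 1.0 without the block). The 3 chief cell markers came to between 56.6 and 126 CPM in controls and between 52.8 and 102 CPM in overexpressing libraries. Of these, Cblif was at 38.2 CPM in control replicate 3 and 32.1 CPM in Erbb2 replicate 3. In the remaining libraries it was between 0.793 and 3.62 CPM. Lipf had 2 counts in control replicate 2 and none elsewhere. Of the 2 parietal cell genes Atp4a was at 2.87 to 5.41 CPM over the 6 libraries and Atp4b had 0 counts in each. The part of these markers in the values of the BMP and ID genes was not tested.

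Bmp8b, a ligand known in mice from male germ cells and brown fat, was at 3.75, 2.76 and 8.0 CPM in control replicates 1, 2 and 3 and at 5.02, 3.79 and 15.5 CPM in the overexpressing libraries. It was higher in the overexpressing library of each of the 3 pairs, by log2 ratios of 0.42, 0.46 and 0.95, and both libraries of replicate 3 were above the other 4. With the block it came to a log2 fold change of 0.70 (SE 0.21, a 1.63-fold difference, edgeR adjusted p = 0.0961), and without replicate 3 it was 0.44 (SE 0.30, adjusted p = 0.431). Its level is uncertain for a pair of reasons. Exons of Ppie lie over those of Bmp8b on the opposite strand, and since the strand setting is not given, reads of the pair cannot be told apart; Ppie had 17.0 ± 3.52 CPM over the controls and 19.3 ± 1.88 CPM over the overexpressing libraries (SD, n = 3). The close paralog Bmp8a, which can share reads with it, had 10 counts in control replicate 3 and between 19 and 37 in the remaining libraries.

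Both receptor genes were well expressed, and neither passed the threshold. Bmpr1a, the type I receptor gene, was at 203, 208 and 182 CPM in the controls and at 184, 199 and 187 CPM in the overexpressing libraries. Its highest library was 1.14 times its lowest, a smaller ratio than in all but 3.13% of the genes tested. Its blocked estimate was -0.06 on the log2 scale, with an interval of -0.22 to 0.11 (edgeR, adjusted p = 0.777). Bmpr2, the type II receptor gene, was at 164, 161 and 75.9 CPM in the controls and at 142, 179 and 96.9 CPM in the overexpressing libraries. Here both libraries of replicate 3 lay well under the other 4. For Bmpr2 the blocked log2 fold change was 0.09 (interval -0.13 to 0.31, edgeR adjusted p = 0.713), against -0.03 (interval -0.21 to 0.15) without replicate 3. A second type I receptor gene, Bmpr1b, had 3 counts over the controls and 2 over the overexpressing libraries.

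The inhibitory SMADs leaned in opposite directions, neither past the threshold. Smad6, whose protein blocks BMP receptors and SMAD1 in preference to transforming growth factor β signals, was at 11.9, 12.7 and 10.6 CPM in the controls and at 11.1, 12.1 and 7.37 CPM in the overexpressing libraries. It was lower in the overexpressing library of 3 of 3 pairs, by log2 ratios of -0.10, -0.07 and -0.53, and Erbb2 replicate 3 was the lowest library. The blocked log2 fold change was -0.23 (interval -0.58 to 0.12, edgeR adjusted p = 0.531) and became -0.08 without replicate 3 (adjusted p = 0.879).

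Smad7, which blocks both BMP and transforming growth factor β receptors, was at 26.1, 26.6 and 21.0 CPM in the controls and at 30.6, 29.2 and 24.6 CPM in the overexpressing libraries. It was higher in 3 of 3 pairs, by log2 ratios of 0.23, 0.13 and 0.23, and replicate 3 was the lowest library of each group. The blocked log2 fold change was 0.20 (interval -0.03 to 0.43, edgeR adjusted p = 0.385), and it was 0.19 without replicate 3 (adjusted p = 0.446). Of the 10 genes, 2 were higher in all 3 pairs, as were 19.6% of all genes tested, and 1 was lower in all 3, as were 19.2% (38.7% in either direction).

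**Figure D3:**
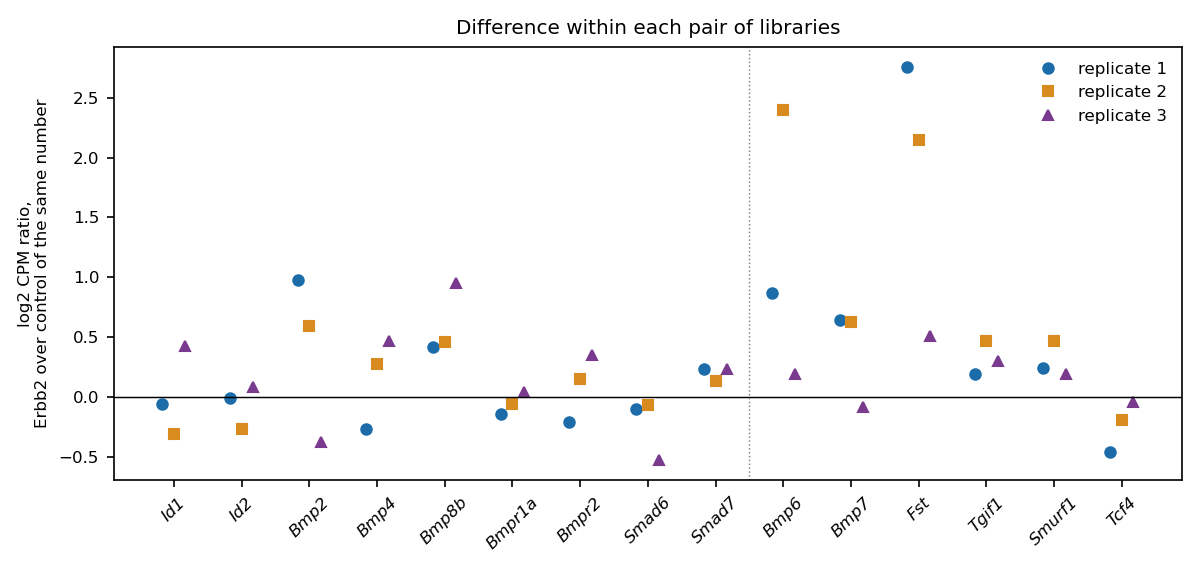
Log2 ratio of CPM, Erbb2-overexpressing over control library of the same number, for 9 of the genes (left of the dotted line; Id3 is left out because 2 libraries had 0 counts) and for 6 further BMP pathway genes. Bmp8b and Smad7 are above 0 in all 3 pairs and Smad6 below, while Bmp2 and Bmp7 are above 0 in replicates 1 and 2 and below in replicate 3.

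A wider list of 59 BMP pathway genes was read from the same fits, and 38 of them had enough counts to be tested. Of the 38, 0 passed without the block (0 also by DESeq2, and 0 at an unadjusted p under 0.05) and 0 with it (edgeR; 7 at an unadjusted p under 0.05), while DESeq2 with the block called 1 higher, Fst, where it called 3.00% of all genes higher. The blocked median log2 fold change was -0.01, equal to that of all genes, with 18 genes above 0 and 20 below. Without replicate 3, 5 of 37 were called higher and 2 lower, where 6.15% and 2.56% of all genes were. Leaving out replicate 1 or replicate 2 instead, the blocked fit called 0 of the wider list in either direction. The calls without replicate 3 given below thus hold for that subset of libraries only. Of the 21 that could not be tested, 8 had 0 counts in each library, among them the ligand genes Bmp5 and Gdf5 and the antagonist gene Grem1, and 22 counts was the most in any library.

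Of 11 further ligand genes 3 were tested. Bmp7, a ligand of many epithelia, was at 13.1, 14.0 and 22.4 CPM in control replicates 1, 2 and 3 and at 20.4, 21.7 and 21.2 CPM in the overexpressing libraries. The overexpressing libraries were level, and the control of replicate 3 stood with them and above the other controls. Its blocked log2 fold change was 0.37 (SE 0.16, edgeR adjusted p = 0.252), and without replicate 3 it was 0.64 (SE 0.16, adjusted p = 0.00234). Bmp6, which in the liver controls iron through hepcidin, stood at a lower level, at 1.44, 0.451 and 1.72 CPM in controls and at 2.62, 2.38 and 1.96 CPM in overexpressing organoids. These groups did not overlap, as was so for 8.75% of all genes tested, and control replicate 2 held only 8 counts. For Bmp6 the blocked log2 fold change was 0.88 (SE 0.39, edgeR adjusted p = 0.274), or 1.35 without replicate 3 (adjusted p = 0.0386).

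Fst encodes follistatin, a secreted protein that binds activins and some BMPs. It was at 0.834, 0.676 and 7.36 CPM in control replicates 1, 2 and 3 and at 5.67, 3.00 and 10.5 CPM in the overexpressing libraries. The groups overlapped only through control replicate 3, and each overexpressing library was above the control of its number, by log2 ratios of 2.76, 2.15 and 0.51. The blocked log2 fold change was 1.22 (SE 0.38, edgeR adjusted p = 0.145), while the same design in DESeq2 gave 1.72 (SE 0.42, adjusted p = 0.00242). Without replicate 3 it was 2.54 (SE 0.42, edgeR adjusted p = 5.72e-07), a 5.82-fold rise over the remaining pairs. The blocked edgeR adjusted p of Fst was 0.297 without replicate 1 and 0.349 without replicate 2. Of 13 secreted modulators 7 were tested, and with the block 4 lay above 0 and 3 below.

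All 12 membrane and intracellular regulators were tested, and 0 passed with all pairs. Tgif1, a homeodomain co-repressor of SMADs, was at 99.4, 75.1 and 108 CPM in the controls and at 113, 104 and 132 CPM in the overexpressing libraries, higher in 3 of 3 pairs. Its blocked log2 fold change was 0.31 (SE 0.08, edgeR adjusted p = 0.0689), or 0.33 without replicate 3 (adjusted p = 0.0122). Smurf1, a ubiquitin ligase that marks SMAD1 and SMAD5 for breakdown, was at 74.8, 56.8 and 84.4 CPM in the controls and at 88.3, 78.8 and 96.3 CPM in the overexpressing libraries, also higher in 3 of 3 pairs. Its blocked log2 fold change was 0.30 (SE 0.09, edgeR adjusted p = 0.0972), or 0.36 without replicate 3 (adjusted p = 0.00842). Tob1, an antiproliferative protein that binds SMADs and is named because it was the other regulator called without replicate 3, had a log2 fold change of -0.37 there (adjusted p = 0.00103) and of -0.17 with all pairs (adjusted p = 0.559 in edgeR).

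In the remaining groups 0 genes passed with all pairs. Of 4 further SMAD genes 3 were tested, Smad1, Smad5 and Smad4, with blocked log2 fold changes of -0.06, -0.13 and 0.09 and adjusted p-values between 0.496 and 0.763 in edgeR; Smad9 had 4 counts over the controls and 0 over the overexpressing libraries. Of 10 further receptors and co-receptors 7 were tested. The type I receptor gene Acvr1 had 35.9 ± 3.92 CPM over the controls and 38.3 ± 3.60 CPM over the overexpressing libraries, and Acvrl1, a type I receptor gene of endothelium, had 0.741 ± 0.680 and 1.14 ± 0.752 CPM (SD, n = 3). Their blocked log2 fold changes were 0.09 and 0.58 (adjusted p = 0.709 and 0.579 in edgeR).

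Of 6 further BMP target genes 3 were tested, and all 3 lay below 0 with the block, as did 6498 of all 12593 genes tested. Msx2, a homeobox gene that BMPs induce in many tissues, was at 0.834, 1.63 and 0.602 CPM in the controls and at 0.305, 0.736 and 0.250 CPM in the overexpressing libraries, lower in 3 of 3 pairs at a low level. Its blocked log2 fold change was -1.25 (SE 0.52, edgeR adjusted p = 0.252). Atoh8, a helix-loop-helix factor gene, had one of -0.23 (adjusted p = 0.684). Among the E proteins, the helix-loop-helix partners that ID proteins bind, Tcf4 was at 183, 178 and 90.6 CPM in the controls and at 133, 157 and 88.0 CPM in the overexpressing libraries. Both libraries of replicate 3 were the lowest. For Tcf4 the blocked log2 fold change was -0.23 (SE 0.09, edgeR adjusted p = 0.212), or -0.32 without replicate 3 (adjusted p = 0.0104), and Tcf12 had one of 0.06 with all pairs.

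**Figure D4:**
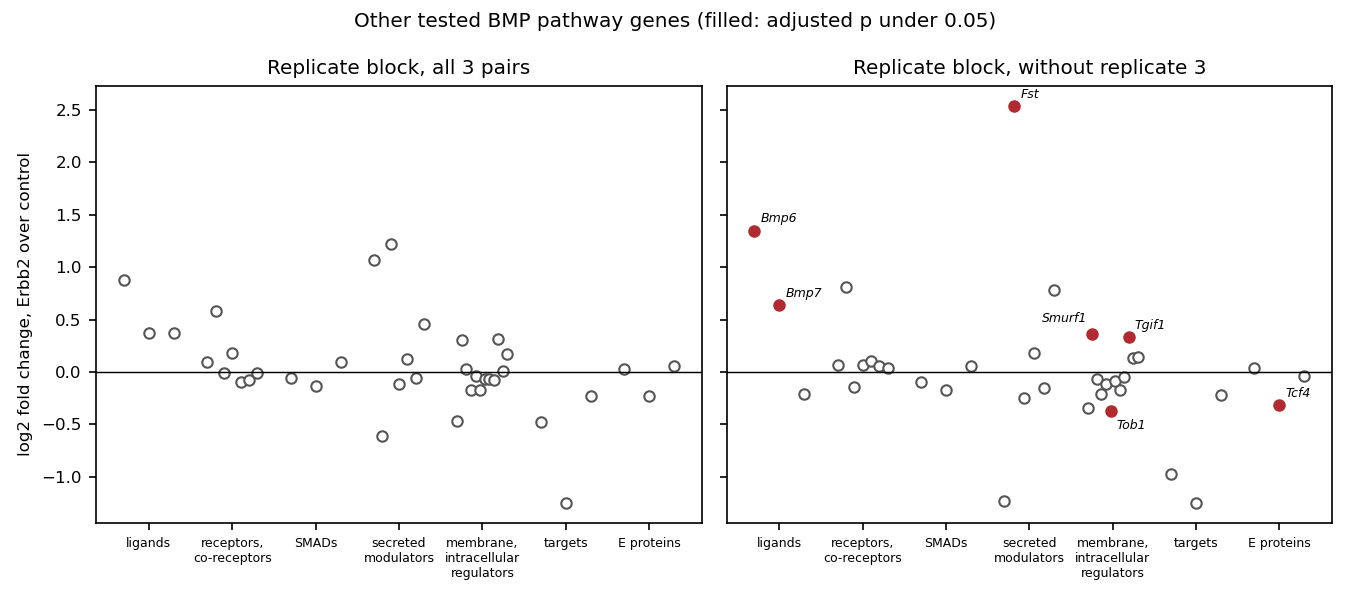
Log2 fold change, Erbb2 overexpression over control, of the tested genes of the wider list by role, from edgeR with the replicate block and all 3 pairs (left) or without replicate 3 (right). Filled symbols passed an adjusted p of 0.05 over all genes; with all pairs 0 did, and without replicate 3 those were Bmp6, Bmp7, Fst, Smurf1 and Tgif1 above 0 and Tob1 and Tcf4 below.

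The genes whose pattern over the 6 libraries was most like that of a described gene were found by the root mean square difference of log2 CPM, each gene taken as deviations from its own mean. For Id1, whose own deviations had a root mean square of 0.33, the nearest were Zfp874a (0.07), Golph3l (0.08) and Dusp5 (0.08), the last a MAP kinase phosphatase gene. Id2 deviated by 0.14 and was nearest to Rint1, Rsrc1 and Slc44a2, at differences between 0.02 and 0.04. Smad6 (own deviation 0.26) was nearest to Zfp764, Hexim1 and Rcbtb2 at 0.04 to 0.05, and Smad7 (0.17) to Cramp1l, Epha1 and Rel at 0.02 to 0.04. For Id3, which deviated by 1.59, the nearest genes Bcl2l15, Kcnh2 and Abi3 were at 0.60 to 0.71. With 6 libraries and 12593 genes to choose from, small differences arise without any link between genes.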

How the data were processed

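The authors deposited raw counts of reads for each Ensembl gene, 1 table per library. The submitters' processing notes name STAR, featureCounts and GRCm39; nothing used here gives their versions, the annotation or the strand setting. Symbols matched 25424 of 25528 IDs. Groups and replicate numbers came from sample titles. The genes and lists were chosen with earlier results of these data known.

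Counts were tested with edgeR 4.0.16 in R 4.3.3: filterByExpr (minimum count 10; 12593 genes kept), TMM scaling, robust quasi-likelihood F test with the group as single term, Benjamini-Hochberg adjustment over all genes, threshold 0.05. The SE is the fold change over the square root of F, and 95% intervals use the moderated degrees of freedom. Alternatives were the replicate number as a block, RLE scaling, DESeq2 1.42.0, other filters and left-out libraries. The numbers pair the libraries by the correlation of deviations from group means (0.333, 0.660 and 0.707), not by a label. P-values with the block measure spread within pairs, moderated over all genes. Without replicate 3 few libraries remain, and this spread is taken largely from other genes. Epcam, Cdh1, Krt19 and Bmpr1a then shared an SE of 0.09. DESeq2 gave no adjusted p for 5 genes, or 245 with the block. No tables were identical, and replicates differed far beyond sampling noise (chi-square of at least 33.5 per degree of freedom). Genes named from the wider list were those past the threshold and the 2 with the smallest blocked p in each role; exceptions are stated, and 1 gene under this rule is not reported here.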

Additional observations from a re-analysis of the deposited data

How the results depend on the processing

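That 0 of the 10 genes passed the threshold held in edgeR and DESeq2, with TMM or RLE scaling, with and without the filter, with and without the replicate block, and with each single library left out. Without the block, however, edgeR called 0 of all genes under either scaling and each filter. With a single library left out it called at most 1. These fits could thus hardly have called any of the 10 and say little on whether the genes differ. With left-out libraries the count of the 10 genes called higher lay between 0 and 1 and that called lower stayed at 0. The 1 was Bmp2 with the block and without replicate 3. For the wider list these ranges were 0 to 5 higher and 0 to 2 lower, and DESeq2 with the replicate block called 1 higher. Over all genes the count of higher and lower calls was 0 and 0 without the block, 298 and 91 with the replicate block, 312 and 83 with the block and RLE scaling, 370 and 96 with the block and DESeq2, 272 and 73 with the block and no filter on low counts, and 28 and 6 with DESeq2 alone. Single libraries left out without the block gave 0 to 1 higher and 0 lower in edgeR. With the block, leaving out replicate 1 gave 173 and 40, replicate 2 gave 122 and 24, and replicate 3 gave 769 and 320.

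Of 168 log2 fold changes of the 10 genes under alternatives, 150 kept direction and side of the threshold, 17 changed sign and 1 passed the threshold. Bmp2, Bmpr1a, Smad6 and Smad7 had no change of sign. Id1 moved from -0.03 to 0.02 with the replicate block, whichever scaling, tool or filter went with it. With libraries left out Id1 ranged from -0.21 to 0.31, Id2 from -0.16 to 0.06, Id3 from -0.05 to 3.35, Bmp4 from -0.01 to 0.38, Bmp8b from -0.15 to 1.33 and Bmpr2 from -0.22 to 0.26. Among these, with the block, Id1 was 0.20 and Id2 0.05 without replicate 2, and Bmp4 was -0.0027 without replicate 3; Bmp4 was 0.32 without control replicate 1. The cause of these shifts was not tested. Depth limits Id3, at 0 to 43 counts a library, and the 21 listed genes under the filter.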

Other observations

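Chrd, which encodes chordin, a secreted BMP antagonist, was under the filter on low counts and was singled out after its values had been seen. It had 0 counts in each of the 3 control libraries and 8, 7 and 20 counts in Erbb2 replicates 1, 2 and 3. Set against a floor of 3 counts over the control group, its level in the overexpressing organoids came to 11.3-fold. This floor covers counting error in the controls only and not the spread between libraries, so 11.3 is not a lower bound on the difference. With no filter on low counts its adjusted p was 0.979 without the replicate block and 0.0887 with it (edgeR). Among the other antagonists, noggin (Nog) was also named outside the rule for the wider list. It was at 0.0463, 0.169 and 0.473 CPM in control replicates 1, 2 and 3 and at 0.523, 0.170 and 0.749 CPM in the overexpressing libraries. The groups overlapped, with a blocked log2 fold change of 1.07 (SE 0.74, edgeR adjusted p = 0.513). Of the 7 tested secreted modulators 4 lay above 0 with the block and 3 below.

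The number of Smad7 counts for each Smad6 count, a ratio within a library that does not depend on scaling between libraries, was 2.19, 2.10 and 1.98 in control replicates 1, 2 and 3 and 2.76, 2.41 and 3.34 in the overexpressing libraries. These groups did not overlap. The ratio is a description with no test, since it was 1 of 3 such ratios looked at with the values of both genes known. The ratio of Id2 to Id1 counts, from 1.37 to 2.86 in controls and from 1.4 to 2.46 in overexpressing organoids, and that of Bmpr1a to Bmpr2, from 1.24 to 2.40 and from 1.11 to 1.93, overlapped between groups.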
